A study of Mus musculus with 4 samples.

Results

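Interferon-stimulated genes were followed across the cell classes of mouse digits with regenerating tips. They were a list of 37 gene symbols, matched exactly among the 33696 genes of the deposited tables, and all 37 were found. The study asked how loss of lymphatic vessels alters regeneration of the terminal phalanx (P3), and it profiled dissociated P3 digits by droplet-based single-cell RNA sequencing with 10x Genomics reagents that read the 3' end of transcripts and tag every molecule with its own barcode, the unique molecular identifier (UMI). In the study the digit tips had been amputated through P3 before tissue was taken. For cell preparation the paper describes cutting hind digits at the phalanx proximal to P3. The libraries may thus hold tissue proximal to P3, and may include a digit whose tip was not amputated. One pair of libraries compared SAR131675-treated mice with mice labelled diet control. SAR131675, an inhibitor of the lymphatic growth factor receptor VEGFR3, was given in chow at 30 mg/kg, for 8 days by the labels. The other pair compared lymph node removal (LNR) with a control labelled as not treated, which the study calls sham. The study took the opposite limb of operated mice as sham, so the libraries of this pair may come from the same animals. All mice were female C57BL/6 at 6 to 8 weeks of age, and each library pooled the digits of 10 mice, so animals cannot be told apart within a library. There was 1 library per condition, and the labels give each library its own batch. Treatment therefore cannot be told apart from batch, and conditions could not be tested against each other. The labels give no day of harvest.

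Barcodes with 200 to 5500 genes, at most 30000 UMIs and at most 10% mitochondrial UMIs were kept, which left 29076 SAR131675-treated, 24030 diet control, 19827 LNR and 20669 sham cells. The kept cells held 142866794 to 339642813 UMIs in a library. The median cell held 11316 and 10712 UMIs in the diet pair and 5725 and 5851 in the LNR pair. The 2 libraries of the diet pair shared 210 kept barcodes and those of the LNR pair 101. Cells were grouped by clustering without the 37 genes, and clusters were named from marker genes that are not among them. Levels below are in CPM, the UMIs of a gene for every 1000000 UMIs of its class, and intervals are 95% intervals for counting error alone.

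Interferons are secreted proteins that cells release on sensing viral nucleic acid or other danger. Type I and type III interferons signal through JAK1 and TYK2 to a complex with STAT2 and IRF9, which binds the interferon-stimulated response element. Type II interferon signals through JAK1 and JAK2, and its target genes carry the gamma-activated site. The genes switched on include effectors against viruses or other intracellular pathogens (the *Ifit*, *Oas*, *Mx* and *Gbp* families, *Rsad2*, *Ifitm3*, *Bst2*, *Eif2ak2*), cytosolic RNA and DNA sensors (*Ifih1*, *Dhx58*, *Zbp1*), transcription factors of the response itself (*Irf7*, *Irf9*, *Stat2*, *Irf1*) and brakes on it (*Usp18*).

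Promoter sequences from RefSeq (GRCm38.p6, 250 bases before to 50 after each start) could be matched for 28 of the 37 genes, and they show the elements through which the genes are known to respond. The spaced repeat GAAA, NN, GAAA (any 2 bases between a pair of GAAA), the core of the interferon-stimulated response element, was searched on both strands and was present in 18 of the 28 promoters (64.3%), against 3.99% of 27025 promoters of all genes. The palindrome TTCNNNGAA, the core of the gamma-activated site, was present in 9 of the 28 (32.1%), against 9.55% of all promoters. Of the 18 genes, 15 had the GAAA repeat before the start, 14 of them within 200 bases of it, and 3 had it after the start alone (*Eif2ak2*, *Ifih1* and *Ifitm3*). *Stat2*, *Bst2*, *Gbp2*, *Gbp3*, *Gbp5*, *Gbp7* and *Oas3* were among the other genes with this repeat. The 9 genes with no promoter entry were *Oas2*, *Mx1*, *Mx2*, *Usp18*, *Rtp4*, *Zbp1*, *Dhx58*, *Parp14* and *Ifi27l2a*. The stretches below carry the repeat in genes on which the later comparisons turn, read 5' to 3' on the strand of the gene, with each complete match to the GAAA repeat or its reverse complement in capitals and overlapping matches run together.
Isg15: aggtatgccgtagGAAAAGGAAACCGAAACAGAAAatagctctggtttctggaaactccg
Ifit1: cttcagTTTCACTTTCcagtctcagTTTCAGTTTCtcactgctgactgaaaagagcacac
Ifit3: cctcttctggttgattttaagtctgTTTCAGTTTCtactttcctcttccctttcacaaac
Ifit3b: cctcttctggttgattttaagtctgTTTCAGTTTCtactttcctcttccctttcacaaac
Rsad2: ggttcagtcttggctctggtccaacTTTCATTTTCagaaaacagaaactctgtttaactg
Oas1a: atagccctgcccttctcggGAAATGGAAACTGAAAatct
Trim30a: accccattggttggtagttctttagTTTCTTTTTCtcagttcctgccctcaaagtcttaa
Ddx60: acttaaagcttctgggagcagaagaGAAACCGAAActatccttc

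In GRCm38.p6 these stretches lie at chr4:156200850-156200909 on the minus strand for *Isg15*, chr19:34640779-34640838 on the plus strand for *Ifit1*, chr19:34583382-34583441 and chr19:34607778-34607837 on the plus strand for *Ifit3* and *Ifit3b*, chr12:26456538-26456597 on the minus strand for *Rsad2*, chr5:120907526-120907564 on the minus strand for *Oas1a*, chr7:104465195-104465254 on the minus strand for *Trim30a* and chr8:61928043-61928086 on the plus strand for *Ddx60*. All lie upstream of the annotated start. The stretches of *Ifit3* and its near copy *Ifit3b* are letter for letter the same, and reads shared by such close copies may have been divided or dropped in counting, which also applies to the *Oas* and *Gbp* families. A match describes the letters alone and was not tested as a binding site.

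The summed level of the 37 genes was highest in vascular and macrophage-like cells and lowest in epithelial cells of both pairs. It was 3447 to 3771 CPM over the 4 libraries in blood endothelial-like cells, 2744 to 3810 CPM in macrophage-like cells and 2051 to 3869 CPM in lymphatic endothelial-like cells. Neutrophil-like cells followed at 1847 to 2189 CPM, pericyte and smooth muscle-like cells at 1721 to 1944 CPM and fibroblast-like cells at 1550 to 2270 CPM, and these ranges overlap one another. Keratinocyte-like cells, the most numerous class, held 328 to 510 CPM. Langerhans-like, sebaceous-like and sweat gland-like cells were also low, between 152 and 421 CPM.

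*Ifitm3*, which encodes a membrane protein that hinders viral entry, carried much of these sums, with 63.2% to 79.8% of the members' UMIs in keratinocyte-like cells but 13.1% to 14.8% in macrophage-like cells. In macrophage-like cells the leading gene was *Ifi27l2a*, at 1004 to 2240 CPM. Without these 2 genes the leading classes were at 1130 to 1981 CPM in blood endothelial-like, 976 to 1389 CPM in macrophage-like and 926 to 1555 CPM in neutrophil-like cells, against 75.6 to 116 CPM in keratinocyte-like cells. Lymphatic endothelial-like cells then stood at 611 to 783 CPM, below blood endothelial-like cells in all 4 libraries.

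**Figure D1:**
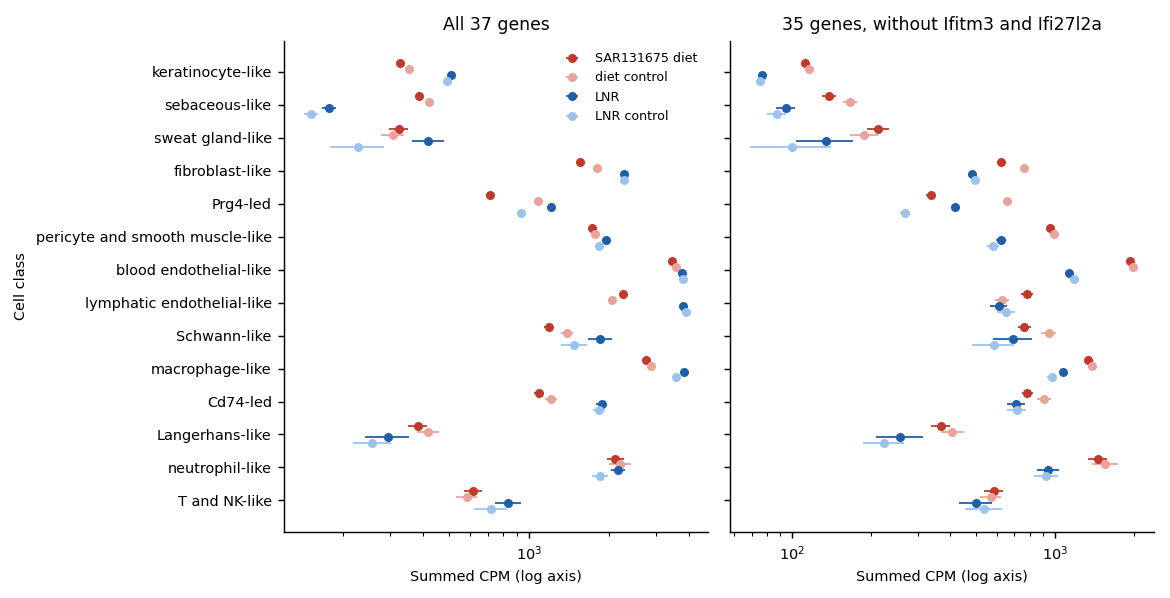
Summed CPM of the interferon-stimulated genes by cell class on a log axis, for all 37 genes (left) and for 35 without *Ifitm3* and *Ifi27l2a* (right), with 1 point per library and bars for exact 95% Poisson intervals. Blood endothelial-like, macrophage-like and neutrophil-like cells lie to the right of keratinocyte-like cells in every library, at 926 to 1981 against 75.6 to 116 CPM for the 35 genes.

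The class with the highest level differed among the members. How often each class was highest among all genes was not counted, so the counts by class describe the members alone. By the mean CPM over libraries, and among the classes named in both pairs, blood endothelial-like cells were highest for 14 of the 37 genes, among them the guanylate-binding proteins *Gbp2*, *Gbp3*, *Gbp5* and *Gbp7*, which attack intracellular pathogens, and *Irf1*, *Irf9*, *Stat2*, *Mx2*, *Xaf1*, *Bst2*, *Cmpk2*, *Parp14*, *Ifi44* and *Eif2ak2*. Neutrophil-like cells were highest for 7 (*Isg15*, *Irf7*, *Rsad2*, *Oasl2*, *Oas3*, *Rtp4* and *Trim30a*) and macrophage-like cells for 6 (*Oasl1*, *Oas1a*, *Oas2*, *Dhx58*, *Ifi27l2a* and *Ddx60*). Erythroid-like cells, named in the diet pair alone and so not ranked, held more *Rsad2* than the neutrophil-like mean. The remaining 10 genes had their highest mean in Schwann-like cells (*Ifit2*, *Ifit3*, *Ifit3b*), in a class led by *Cd74* and other antigen-presentation genes (*Mx1*, *Zbp1*, *Ifih1*), or singly in Langerhans-like (*Usp18*), lymphatic endothelial-like (*Ifitm3*) and sebaceous-like cells (*Ifi35*) and in a class led by *Prg4*, the gene of the joint lubricant lubricin (*Ifit1*). Some of these means rest on few UMIs or few cells. Schwann-like cells of the LNR and sham libraries held 204171 and 207149 UMIs of all genes, and *Ifit3b* ran from 0 to 14.7 CPM in the class. *Ifit1* ran from 1.87 to 46.2 CPM in the *Prg4*-led class, which was highest in 2 libraries, with many UMIs in single cells as described below. For 16 genes the same class was highest in all 4 libraries, as for 36.9% of the 18040 genes with at least 200 UMIs in the kept cells, a minimum that every member passed. For 9 of them the range over libraries did not overlap that of the class with the next highest mean (21.5% of those genes), so both counts were near the share of all genes. They were *Isg15*, *Oas3*, *Rtp4*, *Ifi44*, *Ifi27l2a*, *Gbp2*, *Gbp5*, *Gbp7* and *Ddx60*.

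Several of these 9 genes stood far above the class that came next. *Ddx60*, an RNA helicase gene of the antiviral response, was at 211, 167, 116 and 118 CPM in macrophage-like cells of the SAR131675, diet control, LNR and sham libraries, against 15.1 to 50.7 CPM in neutrophil-like cells. *Ifi44* was at 36.5, 26.0, 15.7 and 14.7 CPM in blood endothelial-like cells and had no UMI in macrophage-like or neutrophil-like cells of any library. The class peak was also marked for an *Oas* gene of neutrophil-like cells. *Oas3*, which makes the second messenger that activates RNase L, was at 40.1, 45.3, 31.3 and 37.3 CPM in neutrophil-like cells, from 9 to 15 UMIs in each library, and had no UMI in blood endothelial-like cells. Langerhans-like cells, with the next highest mean for *Oas3*, were at 5.93 to 12.5 CPM. *Gbp5* was at 38.4, 49.5, 13.6 and 16.2 CPM in blood endothelial-like cells and at 4.19 to 9.80 CPM in Schwann-like cells, the class with the next highest mean. The LNR pair was lower than the diet pair for *Ddx60*, *Ifi44* and *Gbp5*, yet above the next class in each of its libraries.

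**Figure D2:**
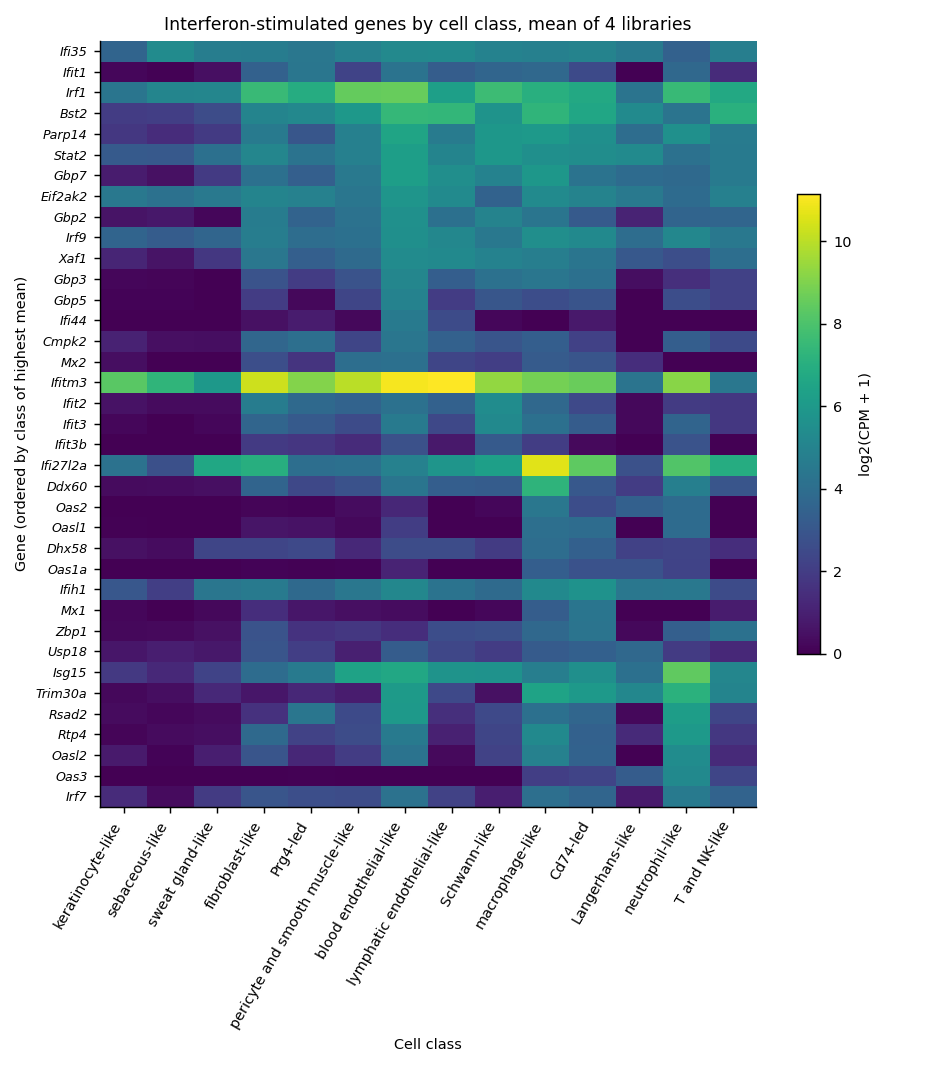
Mean over 4 libraries of the level of each of the 37 genes by cell class, coloured by log2(CPM + 1), with genes ordered by the class of their highest mean. Blocks of bright cells mark the blood endothelial-like (14 genes), macrophage-like (6 genes) and neutrophil-like (7 genes) peaks, and the keratinocyte-like column is dark for most genes. The shares of all genes with these peaks were not counted.

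Among the 12 core genes used later to find responding cells, *Isg15*, which encodes a ubiquitin-like modifier, was highest in neutrophil-like cells, at 438, 468, 261 and 207 CPM in the SAR131675, diet control, LNR and sham libraries. In blood endothelial-like cells *Isg15* was at 102, 79.4, 107 and 115 CPM, and in macrophage-like cells at 17.7, 34.9, 29.2 and 24.7 CPM. The neutrophil-like values lay above all others. *Rsad2*, the gene of viperin, which turns a nucleotide into a chain terminator of viral polymerases, was at 50.7, 80.5, 79.4 and 77.1 CPM in neutrophil-like cells and at 68.7, 89.6, 46.8 and 49.1 CPM in blood endothelial-like cells, and these ranges overlap. Macrophage-like cells held *Rsad2* at 7.97, 25.7, 17.5 and 13.6 CPM. The neutrophil-like values rest on 16 to 38 UMIs of *Rsad2* and on 77 to 252 cells.

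The *Ifit* genes, whose proteins hold back foreign RNA, were spread more evenly. *Ifit3* was at 29.6, 33.2, 11.8 and 15.2 CPM in blood endothelial-like cells and at 19.2, 24.6, 15.3 and 6.39 CPM in macrophage-like cells. *Ifit2* was at 25.8, 34.8, 18.8 and 19.7 CPM in fibroblast-like cells, which was above the macrophage-like values of 8.35, 21.3, 14.2 and 5.96 CPM within each library. The order of classes was thus not the same for neighbouring genes of this family. *Ifit1* was at 19.2, 19.4, 12.8 and 20.7 CPM in blood endothelial-like and at 10.2, 12.4, 14.9 and 13.6 CPM in macrophage-like cells. *Ifit3b* stayed below 15 CPM in every library of these classes and of Schwann-like cells, where it was highest on average.

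*Irf7*, the transcription factor that amplifies type I interferon production, was at 15.0, 15.7, 19.9 and 19.7 CPM in blood endothelial-like cells and at 12.7, 15.6, 18.6 and 15.8 CPM in macrophage-like cells, ranges that overlap. *Usp18*, which removes ISG15 from proteins and damps the receptor, was at 10.95, 14.8, 3.13 and 5.31 CPM in blood endothelial-like cells. *Cmpk2*, the neighbour of *Rsad2* and a nucleotide kinase gene, was at 26.0, 31.0, 10.7 and 10.9 CPM there. Both were lower in the LNR pair than in the diet pair. *Rtp4* was at 33.3, 26.5, 18.3 and 15.2 CPM in blood endothelial-like, 49.7, 45.7, 28.1 and 27.7 CPM in macrophage-like and 88.1, 65.4, 50.1 and 57.2 CPM in neutrophil-like cells, so that the 3 classes kept the same order in each library. *Oasl1* was at 17.5, 25.5, 10.9 and 9.37 CPM in macrophage-like cells. *Mx1* was highest in the *Cd74*-led class, at 18.9, 30.3, 14.6 and 11.7 CPM, and nearly absent from blood endothelial-like cells, with 0 to 4 UMIs in a library. Many laboratory strains, C57BL/6 among them, carry an *Mx1* allele that makes no functional protein, and the values here are of RNA.

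**Figure D3:**
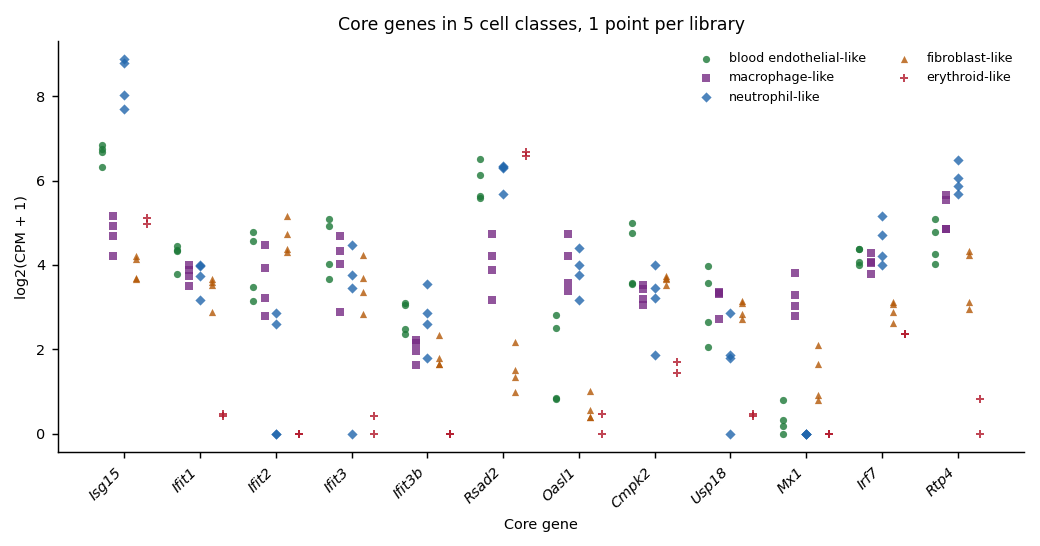
Levels of the 12 core genes as log2(CPM + 1) in 5 cell classes, with 1 point per library (4 libraries, and 2 for erythroid-like cells, which were named in the diet pair). *Isg15* is highest in neutrophil-like cells, at 207 to 468 CPM, and erythroid-like cells stand out for *Rsad2* alone, at 94.6 and 102 CPM.

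Erythroid-like cells, a class led by hemoglobin genes and named in the diet pair, carried *Rsad2* with little of most other core genes. They held 296 *Rsad2* UMIs in the SAR131675 library and 250 in diet control, at 102 and 94.6 CPM, and 23.1% and 23.6% of these cells had a *Rsad2* UMI. In keratinocyte-like cells of the same libraries 0.165% and 0.127% of cells had one. The same erythroid-like cells held 1 and 1 UMI of *Ifit1*, none of *Ifit2*, 1 and 0 of *Ifit3* and none of *Ifit3b* or *Mx1*. *Isg15* was at 30.4 and 33.7 CPM and *Cmpk2* at 1.73 and 2.27 CPM in these cells. No single cell held more than 18 of the *Rsad2* UMIs of this class. The cluster also scored 0.69 on the basal keratinocyte markers, against 1 on the erythroid markers. *Ifnlr1*, a receptor gene counted mostly in keratinocyte-like cells, was at 11.7 and 6.81 CPM in it, against 12.1 and 11.9 CPM in keratinocyte-like cells. The part of keratinocyte RNA in these barcodes was not tested.

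Keratinocyte-like cells were low in most members. In these cells 21 of the 37 genes were under 1 CPM in all 4 libraries (22.7% of the genes with at least 200 UMIs in the kept cells), and 4 were over 10 CPM in all 4 (40.3%), namely *Ifitm3*, *Irf1*, *Ifi35* and *Eif2ak2*, the gene of the RNA-activated kinase PKR. The epidermal layers were not compared, because several clusters that scored as basal were led by suprabasal or hair follicle keratins. In the LNR pair 1 keratinocyte-like cluster, led by *Krt71*, held 4 LNR and 383 sham cells. In the diet pair a keratinocyte-like cluster led by *Krt25* held 1065 SAR131675-treated and 390 diet control cells.

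Macrophage-like and keratinocyte-like cells of the same library were compared next, since neither class was defined by the members. The median log2 ratio of CPM over the members with at least 20 UMIs was 5.30 in the SAR131675 library (34 genes), 5.63 in diet control (35 genes), 5.47 in LNR (31 genes) and 4.95 in sham (31 genes). In LNR 1 of these members had no UMI in one of the classes, and the median with it set at 3 UMIs was also 5.47. Over all genes tested the medians were -0.16, -0.17, 0.05 and -0.01. In these libraries 34, 35, 30 and 30 members were more than 1.5-fold higher in macrophage-like cells, against 30.2%, 30.4%, 35.2% and 34.2% of all genes, and no member was more than 1.5-fold lower. As a gauge of free RNA, the complement genes *C1qa*, *C1qb* and *C1qc*, which mark macrophages, were in keratinocyte-like cells at 0.020% to 0.095% of their macrophage-like level. Of the members with at least 20 UMIs in macrophage-like cells, 1 lay at or below that baseline in LNR (*Oas2*) and none did in the other libraries. The baseline gauges RNA set free by macrophages alone, and other classes also held the members. It therefore cannot tell how much of the keratinocyte-like level was free RNA.

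The genes that produce and receive interferon were read from a separate list of 33 genes. No UMI was found for *Ifna1*, *Ifna2*, *Ifna4*, *Ifne*, *Ifnl2* or *Ifnl3* in the kept cells of any library. *Ifnk* had 10 UMIs in 10 cells, 7 of them in the sham library, and 5 of the 10 were in keratinocyte-like cells. *Ifnb1*, the gene of interferon beta, had 39 UMIs in 11 cells over the 4 libraries, of which 31 were in the SAR131675 library and 23 in 1 cell of a cluster without a name. *Ifng*, the gene of interferon gamma, had 92 UMIs in 27 cells, and 85 of them were in 22 T and NK-like cells, at 35.03, 49.4, 23.7 and 7.35 CPM of that class. Ligand RNA was therefore counted in few cells, and short-lived transcripts at low level would be missed at this depth.

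Receptor genes were detected broadly. *Ifnar1* and *Ifnar2*, the type I receptor chains, had 23372 and 42788 UMIs in all kept cells and *Ifngr1* and *Ifngr2*, the type II chains, 58036 and 25142. *Ifnar2* was at 169 to 207 CPM in macrophage-like, 128 to 206 CPM in blood endothelial-like and 19.6 to 21.7 CPM in keratinocyte-like cells. The type III receptor gene *Ifnlr1* had 6567 UMIs, of which 5841 were in keratinocyte-like cells.

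To ask whether VEGFR3 inhibition went with a change in these genes, SAR131675-treated cells were compared with diet control within each class. In the 4 classes that follow the members' median lay somewhat below that of all genes, and it was lowest in fibroblast-like cells. The median log2 ratio was -0.12 over 33 members in keratinocyte-like, -0.28 over 34 in fibroblast-like, -0.07 over 35 in blood endothelial-like and -0.14 over 36 in macrophage-like cells, where the medians of all genes were between -0.03 and 0.00. In fibroblast-like cells 30 of the 34 members had a ratio below 0. So did 24 of 36 in macrophage-like, 21 of 35 in blood endothelial-like and 19 of 33 in keratinocyte-like cells. The keratinocyte-like and blood endothelial-like medians each rose above 0 in an alternative setting described below. Past 1.5-fold, 7 of 34 members were lower in fibroblast-like cells (4.55% of all genes were) and none was higher (6.53%). In macrophage-like cells 7 of 36 were lower (5.38%) and none was higher (5.41%). In keratinocyte-like cells 5 of 33 were lower (5.48%) and 3 higher (6.69%), and in blood endothelial-like cells 1 of 35, *Zbp1*, was lower (5.13%) and none higher (5.48%).

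The lower members in macrophage-like cells rested in part on few control cells. *Isg15* had 93 UMIs in 46 SAR131675-treated cells and 152 in 73 diet control cells, at 17.7 and 34.9 CPM (log2 ratio -0.98, -1.37 to -0.60). *Rsad2* had 42 and 112 UMIs, a log2 ratio of -1.69 (-2.24 to -1.17), and 44 of the 112 control UMIs came from 1 cell. *Ifit2* had 44 and 93 UMIs, a log2 ratio of -1.35 (-1.91 to -0.82), and 41 of the 93 came from 1 control cell. Without ISG-high cells, which are defined below, the log2 ratios were -0.68 for *Isg15*, -0.38 for *Rsad2* and -0.55 for *Ifit2*. ISG-high cells were picked by UMIs of these same genes, so leaving them out takes such UMIs away by construction, most from the library that held more of these cells, and here and below these values describe where the UMIs lay. *Mx1*, *Zbp1* and *Gbp5* were at -0.86, -0.68 and -0.88, and their intervals also lay below 0, while that of *Ifit3b* (-0.81) did not, with 11 and 16 UMIs. In the other direction *Bst2*, which tethers budding virus to the cell, was at 184 against 141 CPM (log2 ratio 0.39, 0.24 to 0.53) and *Ddx60* at 211 against 167 CPM (0.34, 0.20 to 0.48) in the same cells, both short of 1.5-fold.

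In fibroblast-like cells *Ifit1* had 244 UMIs in SAR131675-treated and 359 in diet control cells, a log2 ratio of -0.88 (-1.12 to -0.64). Of these, 63 and 197 UMIs lay in ISG-high cells, and without those cells the log2 ratio was -0.16. *Rsad2* was at 1.53 CPM with SAR131675 and 3.52 CPM in diet control on 58 and 107 UMIs, and the log2 ratio of -1.20 (-1.69 to -0.73) became 0.28 without ISG-high cells. *Mx1* likewise went from -0.62 to 0.03. *Mx2*, with 264 and 345 UMIs spread over 206 and 224 cells, was at -0.70 (-0.94 to -0.47) and at -0.52 without ISG-high cells. *Isg15* differed by 0.02 (-0.18 to 0.22) in these cells, so that the lower values did not extend to all core genes. *Ifi27l2a* was higher in SAR131675-treated fibroblast-like cells, at 78.8 against 61.4 CPM (0.36, 0.28 to 0.44).

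In keratinocyte-like cells *Bst2* was higher with SAR131675, with 616 UMIs in 564 cells against 317 in 286 cells, at 2.56 and 1.67 CPM (log2 ratio 0.61, 0.41 to 0.81). *Oasl2* was lower, with 166 and 212 UMIs and a log2 ratio of -0.70 (-1.001 to -0.40). *Ifit3* was at -1.15 on 24 and 42 UMIs, of which 16 came from 1 control cell, and at -0.28 without ISG-high cells. In lymphatic endothelial-like cells, whose growth VEGFR3 serves, 19 members could be compared and their median was 0.28, with 5 of them past 1.5-fold higher (6.29% of all genes) and none lower (8.3%). *Bst2* was again the most deeply counted of the 5, at 155 against 100 CPM (log2 ratio 0.63, 0.34 to 0.93). *Bst2* was thus higher with SAR131675 in keratinocyte-like, lymphatic endothelial-like and macrophage-like cells, while in fibroblast-like cells it was at -0.05 (-0.17 to 0.08).

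**Figure D4:**
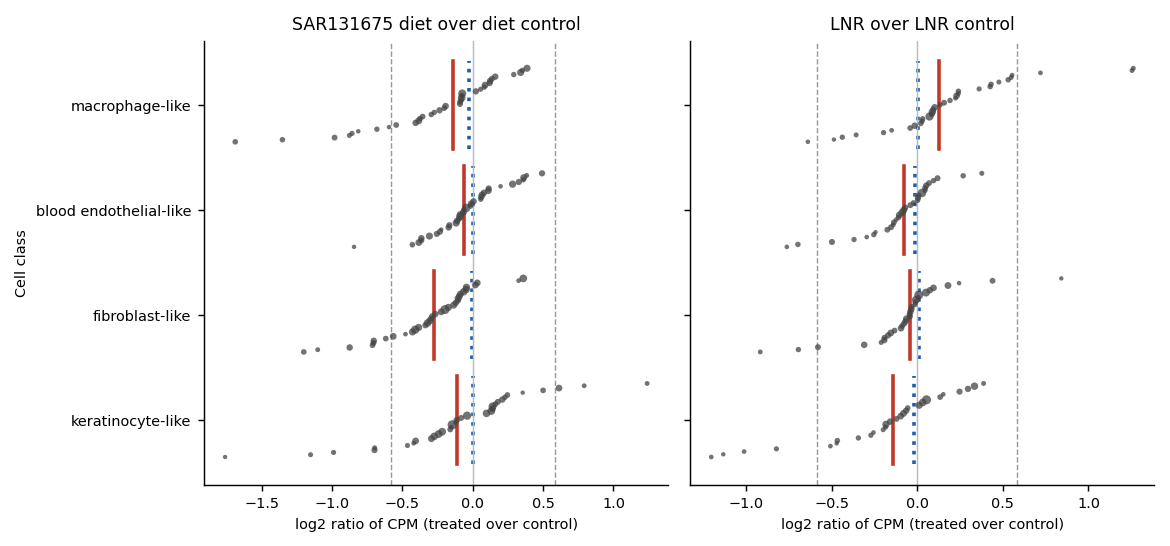
Log2 ratios of CPM, treated over control, for each member with at least 20 UMIs in 4 cell classes (1 point per gene, larger points for more UMIs), for the diet pair (left) and the LNR pair (right). Red lines are medians of the members, blue dotted lines medians of all genes and dashed lines 1.5-fold. Of the medians shown, the members' is lowest in fibroblast-like cells of the diet pair (-0.28) and highest in macrophage-like cells of the LNR pair (0.13).

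Lymph node removal was compared with sham in the same way. The median log2 ratio was -0.14 over 28 members in keratinocyte-like, -0.04 over 32 in fibroblast-like, -0.08 over 31 in blood endothelial-like and 0.13 over 33 in macrophage-like cells, with all-gene medians between -0.02 and 0.01. Each of the first 3 medians rose above 0 in an alternative setting described below. The members were on balance higher with LNR in macrophage-like cells, where 25 of 33 had a ratio above 0. In these cells 3 of 33 were past 1.5-fold higher (4.74% of all genes), namely *Ifit2*, *Ifit3* and *Usp18*, and 1, *Oas1a*, was lower (4.39%). *Ifit3* had 42 UMIs in 25 LNR cells and 15 in 13 sham cells, at 15.3 and 6.39 CPM (log2 ratio 1.26, 0.38 to 2.22). *Ifit2* had 39 and 14 UMIs, a log2 ratio of 1.25 (0.34 to 2.25), but the sham UMIs came from 2 cells and 10 of the 14 from 1 of them. *Isg15* and *Rsad2* were at 0.24 and 0.36 in the same cells, with intervals that include 0.

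In the other 3 of these 4 classes fewer than 5 members passed 1.5-fold in the LNR pair. In keratinocyte-like cells 4 of 28 were lower (6.63%) and none higher (2.16%), with *Ifit2* at -0.82 (-1.54 to -0.14) on 27 and 56 UMIs as the most deeply counted. With classes set by UMIs of markers *Ifit2* was at 0.18 in these cells. In fibroblast-like cells 2 of 32 were lower (2.87%), *Gbp5* at -0.69 (-1.25 to -0.15) and *Rsad2* at -0.92 on 19 and 30 UMIs, and 1, *Trim30a*, was higher (3.52%). In blood endothelial-like cells 2 of 31 were lower (4.89%), *Ifit1* at -0.70 (-1.24 to -0.17) and *Usp18* at -0.76 (-1.92 to 0.33), and none was higher (3.67%). Of the *Ifit1* UMIs 13 of 49 in LNR and 37 of 82 in sham lay in ISG-high cells, the log2 ratio without those cells was -0.27, and with clusters at the finer resolution of 1.2 it was 0.067. *Isg15* was close to level there, at -0.11 (-0.30 to 0.09). In lymphatic endothelial-like cells the median over 17 members was 0.03, with 1 member past 1.5-fold higher (6.24%), *Ifit2*, and 3 lower (7.54%), *Isg15*, *Ifih1* and *Eif2ak2*. In pericyte and smooth muscle-like cells the median was 0.26 over 20 members, with *Ifit1*, *Irf7*, *Rsad2* and *Rtp4* past 1.5-fold higher (5.7%) and *Stat2* lower (4.98%). The same cells of the diet pair had a median of -0.02 over 27 members, with *Isg15*, *Ifit3*, *Oasl2* and *Ifi27l2a* past 1.5-fold higher (5.23%) and *Cmpk2* lower (5.43%).

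Of the interferon pathway list, 23, 22, 21 and 22 genes could be compared in keratinocyte-like, fibroblast-like, blood endothelial-like and macrophage-like cells of the diet pair. *Irf8* was lower past 1.5-fold in keratinocyte-like cells (5.48% of all genes were), at -1.07 (-1.88 to -0.29). It had 23 and 38 UMIs there, at 0.095 and 0.20 CPM. *Ikbke*, an antiviral kinase gene, was higher in macrophage-like cells (5.41%), at 0.64 (0.03 to 1.28). In the LNR pair *Irf8* was higher in fibroblast-like cells (3.52%), at 0.81 (0.04 to 1.61), and *Tbk1* lower in blood endothelial-like cells (4.89%), at -0.66 (-1.11 to -0.22). With 0.5 UMIs added to each sum, no other gene of the list passed 1.5-fold in these 4 classes of either pair. Without that addition *Irf5* was at 0.61 (-0.60 to 1.94) in blood endothelial-like cells of the diet pair, on 19 and 9 UMIs. The *Ifnar1* and *Ifnar2* log2 ratios ran from -0.36 to 0.10 over the 4 classes of both pairs, with the lowest for *Ifnar1* in macrophage-like cells of the LNR pair.

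Among classes with at least 20 members compared, the widest shift between paired libraries was in the *Prg4*-led class, and it had opposite signs in the 2 experiments. In the diet pair the median over 28 members was -0.92, all 28 were lower, 21 were past 1.5-fold lower (7.14% of all genes) and none was past it higher (4.32%), while the median of all genes was -0.06. In the LNR pair the median over 30 members was 0.64, 28 were higher, 16 of them past 1.5-fold (5.8%), none was past it lower (3.62%), and the all-gene median was 0.01. *Ifit1* had 24 UMIs in SAR131675-treated and 274 in diet control cells, at 3.23 and 46.2 CPM, and 214 in LNR and 14 in sham cells, at 28.0 and 1.87 CPM. *Rsad2* had 2, 306, 200 and 16 UMIs and *Isg15* 42, 153, 364 and 88 UMIs in the SAR131675, diet control, LNR and sham libraries.

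Single cells held many of these UMIs. In diet control 1 *Prg4*-led cell held 338 UMIs of the 12 core genes, which was 2.40% of its 14060 UMIs and 2.87% of all core UMIs of that library, with 83 of *Ifit1* and 112 of *Rsad2*. In LNR 1 *Prg4*-led cell held 477 core UMIs of 27287, with 119 of *Ifit1*, 131 of *Rsad2* and 126 of *Isg15*, which was 6.84% of the library's core UMIs. Without ISG-high cells the median in the diet pair was -0.52 with 12 members past 1.5-fold lower, and in the LNR pair it was 0.15 with 4 past 1.5-fold higher and 1 lower. Without the 1 or 2 leading cells of each library the medians were -0.76 and -0.77 in the diet pair, with 19 and 20 of 28 members past 1.5-fold lower. In the LNR pair they were 0.38 and 0.34, with 9 and 8 of 26 members past 1.5-fold higher. The share of all genes past 1.5-fold was not counted for these reduced sets of cells. The core genes stood at 40.8 CPM in SAR131675-treated and 225 CPM in diet control cells, and at 37.0 and 81.3 CPM without ISG-high cells. In LNR and sham they stood at 152 and 41.9 CPM, and at 47.5 and 41.6 CPM without ISG-high cells.

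Some cells held UMIs of several core genes at once. Each cell was thinned to 2000 UMIs at random, and a cell with UMIs of at least 3 of the 12 core genes was called ISG-high, with 8595 shallower cells left out. There were 109, 107, 73 and 69 ISG-high cells in the SAR131675, diet control, LNR and sham libraries, 358 in all, of which 101 were fibroblast-like, 91 blood endothelial-like, 52 macrophage-like and 22 *Prg4*-led. They held 17.1%, 27.5%, 23.8% and 17.4% of all core UMIs of these libraries. Most cells with a core gene had fewer than 3 after thinning, and 63.1% to 69.3% of blood endothelial-like and 98.5% to 98.7% of keratinocyte-like cells had none.

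In blood endothelial-like cells the share of ISG-high cells was 4.97% (exact binomial interval 3.49 to 6.85), 3.65% (2.24 to 5.58), 3.14% (1.93 to 4.82) and 2.48% (1.42 to 3.99) of the SAR131675, diet control, LNR and sham cells. In macrophage-like cells it was 1.72% (0.861 to 3.05), 3.31% (1.97 to 5.18), 2.15% (1.15 to 3.64) and 1.84% (0.887 to 3.36). Within both classes the counting intervals of paired libraries overlap, and with 1 library per condition no difference between conditions was tested. Fibroblast-like cells held 0.692%, 1.03%, 0.497% and 0.758%, and the 25 SAR131675 cells behind the first value lay above the 13 to 24 found in 20 further draws of the thinning. *Prg4*-led cells held 0.400% and 2.65% in the diet pair and 0.974% and 0.121% in the LNR pair, from 2, 11, 8 and 1 cells. Among keratinocyte-like cells 2 of 14007 were ISG-high in diet control and none in the other libraries, where counts of 0 allow shares of up to 3 cells of the total, or 0.017%, 0.037% and 0.031%. Neutrophil-like cells held higher shares than blood endothelial-like cells in the diet pair, 5.66% and 6.06%, but from 6 and 4 cells. In the LNR pair 0 of 53 and 0 of 46 of them were ISG-high, for which the same limit of 3 cells is 5.66% and 6.52%, but 199 of 252 and 167 of 213 were too shallow to be thinned, and without thinning 9 (3.57%) and 8 (3.76%) were ISG-high. When cells were not thinned the shares were higher in the more deeply sequenced diet pair, at 22.6%, 21.4%, 9.07% and 9.16% of blood endothelial-like cells.

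**Figure D5:**
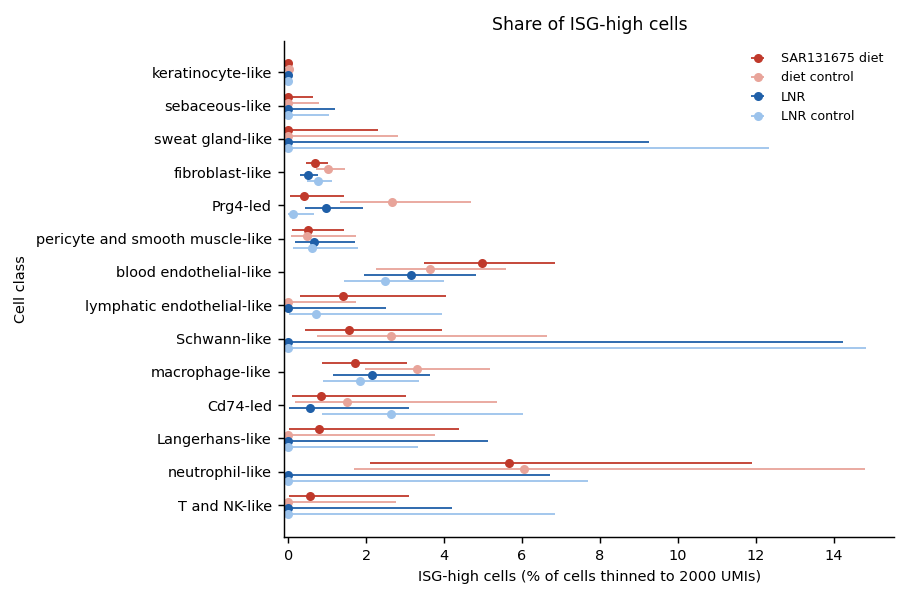
Share of ISG-high cells (at least 3 of 12 core genes after thinning to 2000 UMIs) by cell class, with 1 point per library and bars for exact 95% binomial intervals. Blood endothelial-like cells run from 2.48% to 4.97% and macrophage-like cells from 1.72% to 3.31%, and keratinocyte-like cells sit at or next to 0.

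Most members that were not used to find ISG-high cells were also higher in them. For these ratios UMIs were summed over all libraries, so differences between the experiments may enter them. Of 24 other members tested in macrophage-like cells, 22 were past 1.5-fold higher in the 52 ISG-high cells than in the other cells of the class, against 18.3% of all genes, and their median log2 ratio was 2.14, against 0.00 for all genes. *Oas3*, *Zbp1* and *Gbp2* were higher by 4.40 (3.40 to 5.34), 3.48 (2.92 to 4.00) and 3.46 (2.98 to 3.92) on the log2 scale. *Irf1* (-0.14, -0.65 to 0.32) and *Ifi27l2a* (0.51, 0.40 to 0.63) did not pass 1.5-fold. In blood endothelial-like cells 21 of 24 other members were past 1.5-fold higher in the 91 ISG-high cells, against 17.1% of all genes, with a median of 1.66, and *Ifitm3* (0.11), *Irf1* (0.15) and *Ifi27l2a* (-0.09) did not pass. The most abundant member of each class was thus among those that differed least. ISG-high and other macrophage-like cells had medians of 7835 and 7806 UMIs in the SAR131675 library, 7713 and 7501 in diet control, 3639 and 3773 in LNR and 3256 and 3538 in sham. In blood endothelial-like cells the depths were less alike, at 10787 and 9294, 8491 and 8792, 3654 and 4826, and 3988 and 4669 UMIs in the same order of libraries.

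Outside the list, the 10 genes with the largest ratio in ISG-high macrophage-like cells were *Ifi208* (4.23), *Iigp1* (3.97), *Ifi209* (3.67), *Ifi47* (3.50), *Enpp4* (3.25), *Phf11b* (3.20), *Phf11d* (3.14), *F830016B08Rik* (3.10), *Gvin2* (3.03) and *Ifi211* (2.78). Most of these are known interferon targets, such as the GTPase genes *Iigp1* and *Ifi47* and the *Ifi208*, *Ifi209* and *Ifi211* genes of the family of nuclear DNA sensors, and each was higher in ISG-high cells of 4 libraries except *F830016B08Rik* with 3. Genes of the pathway list past 1.5-fold higher in ISG-high macrophage-like cells included *Rigi* and *Tlr3*, at 2.54 and 2.02, and *Tlr7*, at 0.63 (0.23 to 1.00). The receptor genes of macrophage-like cells had intervals that include 0, with *Il10rb* at 0.14 (-0.23 to 0.49), *Ifnar1* at 0.47 (-0.03 to 0.93), *Ifnar2* at -0.12 (-0.52 to 0.26), *Ifngr1* at -0.14 (-0.51 to 0.21) and *Ifngr2* at -0.47 (-1.15 to 0.14). In ISG-high blood endothelial-like cells *Il10rb*, a chain of the type III receptor, was at 0.91 (0.55 to 1.25) and *Ifnar1* at 0.64 (0.30 to 0.96), both past 1.5-fold, and *Ifnar2* was at 0.27 (0.02 to 0.50). The other type III receptor gene, *Ifnlr1*, had 0 UMIs in these cells and 22 in the other cells of the class. In ISG-high blood endothelial-like cells the 10 leading other genes were *Ccl8* (3.33), *Gm9946* (3.19), *AA386476* (3.10), *Tgtp2* (3.00), *Apol9b* (2.98), *C1qa* (2.90), *Gm4951* (2.88), *Hbb-bt* (2.82), *H3c3* (2.81) and *C1qc* (2.70). Of these *C1qa* and *C1qc* mark macrophages and *Hbb-bt* marks erythroid cells. *C1qa*, *C1qc* and *Hbb-bt* were at 26.3, 24.9 and 441 CPM against 3.52, 3.83 and 62.2 CPM in the other cells of the class. They were higher in ISG-high cells of 3, 2 and 1 of the 4 libraries, and the part of mixed barcodes in these values was not tested.

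Many genes differed between the 2 experiments, members and others alike. Of 32 members with at least 50 UMIs in blood endothelial-like cells, 23 were higher in both diet libraries than in both LNR libraries by over 1.5-fold between the means (39.0% of all genes were) and 2, *Ifitm3* and *Ifi27l2a*, were higher in both LNR libraries (14.2%). *Stat2* was at 113 and 139 CPM in the diet pair and at 23.0 and 24.8 CPM in the LNR pair in these cells. *Ifitm3* was at 1500 and 1549 CPM against 2586 and 2538 CPM. By the same rule 11 of 34 members were higher in the diet pair (33.9%) and 2 in the LNR pair (7.77%) in macrophage-like cells. In fibroblast-like cells 12 of 33 (43.7%) and 2 (8.39%) were, and in keratinocyte-like cells 8 of 30 (50.4%) and 8 (10.2%). The counts for the diet pair in macrophage-like and fibroblast-like cells were thus near the share of all genes. The file headers name Cell Ranger 8.0.1 for the diet pair and 6.1.2 for the LNR pair, versions that by default do and do not count reads in introns, so experiment, depth and counting cannot be told apart.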

How the data were processed

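The values deposited by the authors were UMI counts from Cell Ranger, with no normalization, for each gene in each barcode. The Cell Ranger version was 6.1.2 in the submitters' processing notes for all 4 libraries but 8.0.1 in the file headers of the diet pair. Those notes name GRCm39. RefSeq promoters were on GRCm38.p6, and no coordinates were moved between builds. No barcode had fewer than 500 UMIs.

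Each pair was clustered on its own with scanpy 1.11.5 and leidenalg 0.10.2 in Python 3.11.15 (2000 variable genes without the members and the pathway list, 30 components, 20 neighbors, resolution 0.7), and clusters with *Ptprc* in at least 25% of cells were clustered again. Classes were named from 24 marker lists when a list scored 0.3 or more and no rival reached 0.75 of that, and clusters led by *Prg4* or *Cd74* are named for those genes. The members and lists were chosen with earlier results of these data known.

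Poisson, binomial and conditional intervals at 95% cover counting error alone and assume independent UMIs or cells, so they are too narrow for genes carried by few cells. Medians and counts past 1.5-fold added 0.5 UMIs to each sum, and ratios of single genes did not. The ratios were checked on simulated counts drawn as independent Poisson values, a check that cannot cover UMIs concentrated in few cells. Doublets stayed in the main values, and Scrublet called 4.55%, 1.01%, 6.01% and 8.12% of SAR131675, diet control, LNR and sham cells, where 23.3%, 19.2%, 15.9% and 16.5% were expected from the numbers of kept cells, so most expected doublets were not called. Named genes were the 12 core genes (*Isg15*, *Ifit1*, *Ifit2*, *Ifit3*, *Ifit3b*, *Rsad2*, *Oasl1*, *Cmpk2*, *Usp18*, *Mx1*, *Irf7*, *Rtp4*), members past 1.5-fold with at least 50 UMIs over a pair, the ligands and receptors of the pathway list (1 further gene of that list is not reported here), and the 10 other genes with the largest ratio in ISG-high macrophage-like cells with at least 50 UMIs. Other genes and classes, such as the erythroid-like and *Prg4*-led cells, were chosen after their values were seen.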

Additional observations from a re-analysis of the deposited data

Results flagged for a closer look

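One result stood out because cell classes moved in opposite directions under the same comparison. In LNR against sham, *Ifit2* had a log2 ratio of -0.82 in keratinocyte-like cells, on 27 and 56 UMIs, and of 1.25 in macrophage-like cells, on 39 and 14 UMIs. The difference between the classes was not tested, as each condition has 1 library. In macrophage-like cells 34 of the 39 LNR UMIs and all 14 sham UMIs lay in ISG-high cells. With classes set by UMIs of markers the keratinocyte-like value was 0.18, and the opposite direction was then lost.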

How the results depend on the processing

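Each condition has 1 library, so the limit on every comparison between conditions is the lack of replicates. No paired analysis was possible because the mice of each library were pooled and each condition has 1 library. For the same reason replicates could not be left out in turn. Medians were recomputed with no upper limit on genes or UMIs, at Leiden resolution 1.2, with classes by UMIs of markers, without Scrublet calls or shared barcodes, as means over cells, with at least 5 or 100 UMIs, and, chosen after seeing the data, without ISG-high cells. Of 108 such medians 104 stayed within the 95% order-statistic interval of the main median over members, but 2 of these changed sign, to 0.028 for keratinocyte-like cells at 100 UMIs and 0.0044 for blood endothelial-like cells without Scrublet calls, both in the diet pair. The 4 outside it were in the LNR pair, at 0.084 for keratinocyte-like and 0.061 for fibroblast-like cells with classes by markers, -0.00060 for fibroblast-like cells without ISG-high cells and 0.12 for blood endothelial-like cells at resolution 1.2, and the cause was not tested. Medians of macrophage-like over keratinocyte-like cells stayed between 4.00 and 5.80. Beside these, the reruns covered keratinocyte-like, fibroblast-like, blood endothelial-like and macrophage-like cells of each pair. *Prg4*-led cells were recomputed only without ISG-high or leading cells, and the medians of other classes were not recomputed. Counts of members past 1.5-fold ran from 2 to 10 in fibroblast-like, 4 to 10 in macrophage-like, 2 to 12 in keratinocyte-like and 0 to 3 in blood endothelial-like cells of the diet pair, and from 1 to 4, 0 to 7, 0 to 8 and 1 to 3 in the LNR pair.

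Of 153 values for named members, 5 changed sign. In diet fibroblast-like cells *Rsad2* was at 0.28 and *Mx1* at 0.031 without ISG-high cells and *Gbp5* at 0.0029 as a mean over cells. In the LNR pair *Ifit2* was at 0.18 in keratinocyte-like cells with classes by markers and *Ifit1* at 0.067 in blood endothelial-like cells at resolution 1.2.

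Shares of ISG-high cells followed the definition, as fewer required genes or more UMIs admit more cells. In the order SAR131675, diet control, LNR and sham, without thinning they were 22.6%, 21.4%, 9.07% and 9.16% in blood endothelial-like and 5.68%, 5.69%, 1.33% and 1.28% in fibroblast-like cells, 8.51% and 9.61% in macrophage-like cells of the diet pair, and 0.033%, 0.085% and 0.071% in keratinocyte-like SAR131675, LNR and sham cells. With 2 genes they were 12.5%, 11.1%, 10.5% and 7.74% in blood endothelial-like, 5.0%, 6.25%, 5.28% and 4.05% in macrophage-like and 2.13%, 2.96%, 1.75% and 1.88% in fibroblast-like cells. With 4 genes they were 1.99%, 2.19%, 1.26% and 0.929% in blood endothelial-like and 0.194%, 0.547%, 0.183% and 0.455% in fibroblast-like cells, and 1.29% in diet control and 0.552% in sham macrophage-like cells. Over 20 further draws of the thinning, chosen after seeing the data, they went down to 0.737% in macrophage-like and 1.24% in blood endothelial-like sham cells, 0.360% in SAR131675 fibroblast-like cells and 0% in diet control keratinocyte-like cells, and up to 5.66% in diet control blood endothelial-like cells.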

Other observations

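Some of the smaller classes held too few UMIs for some or most members to be compared. The *Cd74*-led cells had median log2 ratios of -0.21 over 30 members in the diet pair and 0.01 over 20 in the LNR pair. Neutrophil-like cells, with 12 and 11 members countable, had medians of -0.03 and 0.04.

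Cells in clusters without a name made up 5.34% and 5.58% of the diet pair and 11.8% and 10.5% of the LNR pair. Their median log2 ratio over 36 members was 0.28 in the diet pair, where that of all genes was -0.01. In the LNR pair it was 0.15 over 36 members, where that of all genes was 0.02. Beside the leading cells of the *Prg4*-led class, 1 blood endothelial-like SAR131675 cell held 161 core UMIs, 67 of them *Rsad2*, and 1 fibroblast-like SAR131675 cell held 135 core UMIs from all 12 core genes.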
